A study of Mus musculus with 9 samples.

Results

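The oligodendrocyte lineage and myelin genes examined here are 44 genes that mark the successive stages of the myelinating cells of the brain. They were taken by symbol from a table of 54513 genes, and all 44 had enough counts to be tested. By role they comprise 6 genes of precursor cells, 5 lineage transcription factors, 4 genes of cells that are forming myelin and 29 genes of mature oligodendrocytes. Of the mature genes 9 encode proteins of the myelin sheath, 4 encode enzymes of myelin lipids and 16 have other roles. They were measured by RNA-seq in 9 libraries that the labels give as hippocampal tissue of mice, with 3 groups and 3 mice per group. All mice received a high-fat diet for 12 weeks, so no group on standard chow is compared here. The HFD group received that diet alone, the Trp group the same diet with tryptophan added at 0.5% by weight, and the IPA group the diet with indole-3-propionic acid, a bacterial product of tryptophan, at 100 mg/kg by daily gavage. Strain, sex and age were not used here.

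Oligodendrocytes wrap the axons of the central nervous system in myelin, a stack of membrane rich in lipid and in a few abundant proteins. They arise throughout life from precursor cells that carry the PDGF receptor alpha, pass through a short stage marked by Gpr17, Bcas1 and Enpp6, and then switch on the sheath genes under the factors Olig2, Sox10, Nkx2-2 and Myrf. In the hippocampus many of them lie in the fibre tracts that border and cross the cell layers.

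Total counts per library ran from 40621084 to 50938746. The codes WTB, HEB and HOB that head the columns for HFD, IPA and Trp are not explained in the labels. Markers of striatal neurons were abundant in these libraries. Drd2, the D2 dopamine receptor, ranged from 24.1 to 115 CPM (counts relative to the library's total, scaled between libraries by TMM), and Prox1, a factor of dentate granule cells, from 10.3 to 42.3 CPM. One library stood apart. HFD 3 had the lowest mean log2 CPM of 11 striatal markers (5.56, against 6.67 to 7.75 in the other 8 libraries) and the highest mean of 10 markers of thalamus and habenula (5.27, against 3.57 to 4.64) and of 8 blood genes (6.81, against 4.35 to 5.74). It also had the highest mean of 12 hippocampal markers (4.64, against 3.09 to 4.39) and the lowest of 10 neuron markers (9.30, against 9.37 to 9.49). The blood genes summed to 988 to 2607 CPM in HFD, 632 to 757 in IPA and 637 to 724 in Trp. Results that rest on HFD 3 are therefore given with and without it.

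The lineage was present at every stage. On the scale of FPKM (fragments relative to gene length and to library depth, which allows genes to be compared), Mbp, the myelin basic protein, led with a mean of 2077 over the 9 libraries. Mobp followed at 681, Qdpr at 197 and Cnp at 187 FPKM, while the transcription factor Nkx2-2 was lowest at 1.35 FPKM. The precursor receptor Pdgfra averaged 6.02, Olig1 54.0, Gpr17 11.5 and Myrf 6.37 FPKM. Of 10 markers of Schwann cells, the myelinating cells of peripheral nerve, which share some genes with oligodendrocytes, 8 had enough counts to be tested. The summed level of these 8 ranged from 116 to 131 CPM in HFD, from 123 to 128 CPM in IPA and from 109 to 122 CPM in Trp. Foxd3, a transcription factor of the neural crest, had at most 4 counts in a library.

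The levels of mature and forming genes differed more between HFD libraries than between diets. The mean log2 CPM of the 29 mature genes had a group mean of 6.21 ± 0.45 for HFD, 6.25 ± 0.079 for IPA and 6.17 ± 0.13 for Trp, with the SD of n = 3. The 44 genes took 1.58% of all counts in HFD 3 and 0.915% to 1.09% in the other 8 libraries. HFD 3 was the highest library for 22 of the 29 mature genes, 3 of the 4 forming genes, all 5 transcription factors and 2 of the 6 precursor genes, against 17.9% of all genes tested. The ratio of HFD 3 to the mean of HFD 1 and HFD 2 had a median of 1.78 for mature genes, 1.74 for forming genes, 1.31 for transcription factors and 1.26 for precursor genes, beside 0.999 for all genes tested. Among mature genes it ran from 1.03 to 2.65, the highest being that of Ermn, which encodes an actin-binding protein of the outer sheath. In bulk tissue, fewer cells of a type and less RNA per cell cannot be told apart. The part of the regional and blood markers of HFD 3 in its myelin gene level was not tested.

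**Figure D1:**
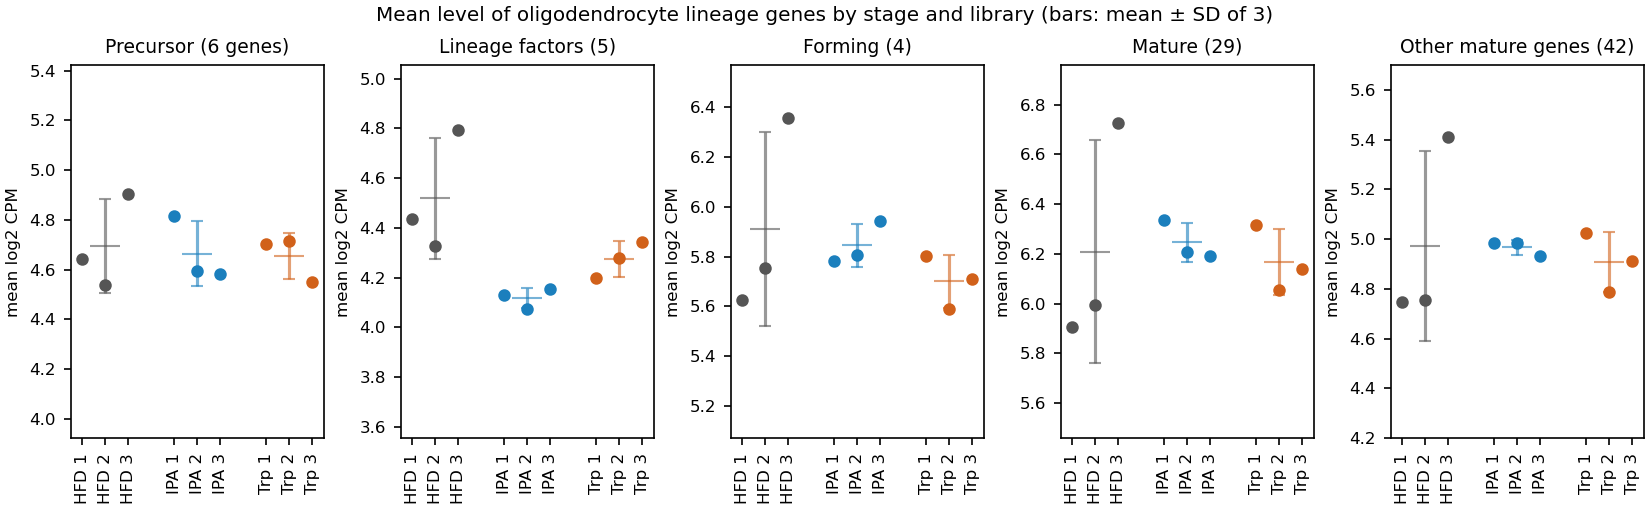
Mean log2 CPM of the genes of each stage (y axis, each panel spanning the same range of log2 units) in the 9 libraries (x axis), with the mean and SD of the 3 libraries of a group as bars; the last panel holds 42 other mature oligodendrocyte genes outside the 44. HFD 3 is the highest point in all 5 panels, and in the mature panel it lies at 6.73 against 5.91 to 6.34 in the other libraries.

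With all 9 libraries, none of the 44 genes passed the test in any comparison (edgeR's quasi-likelihood test, Benjamini-Hochberg adjusted p under 0.05). Of all genes tested, 0.342% passed in the Trp to HFD comparison, 0.00535% in that of IPA to HFD, and 0% between Trp and IPA. At an unadjusted p under 0.05 there were 9 members for Trp against HFD (20.5% of the 44, beside 11.3% of all genes tested), 2 with higher and 7 with lower levels in Trp. There were 6 for IPA against HFD (13.6%, beside 10.4%), 1 higher and 5 lower in IPA. For Trp against IPA there were 0, beside 4.49% of all genes tested, and the smallest adjusted p of a member was 0.987. DESeq2 called 2 members in Trp (beside 0.912% of all genes), 1 in IPA (beside 0.506%) and 0 in Trp against IPA (beside 0.0475%). On log2(FPKM + 0.5), limma called 0 members in each comparison, beside 0.444%, 0.0074% and 0.0148% of all genes. Both supplemented groups are compared with the same HFD libraries, so the values of these comparisons are not independent of each other.

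**Figure D2:**
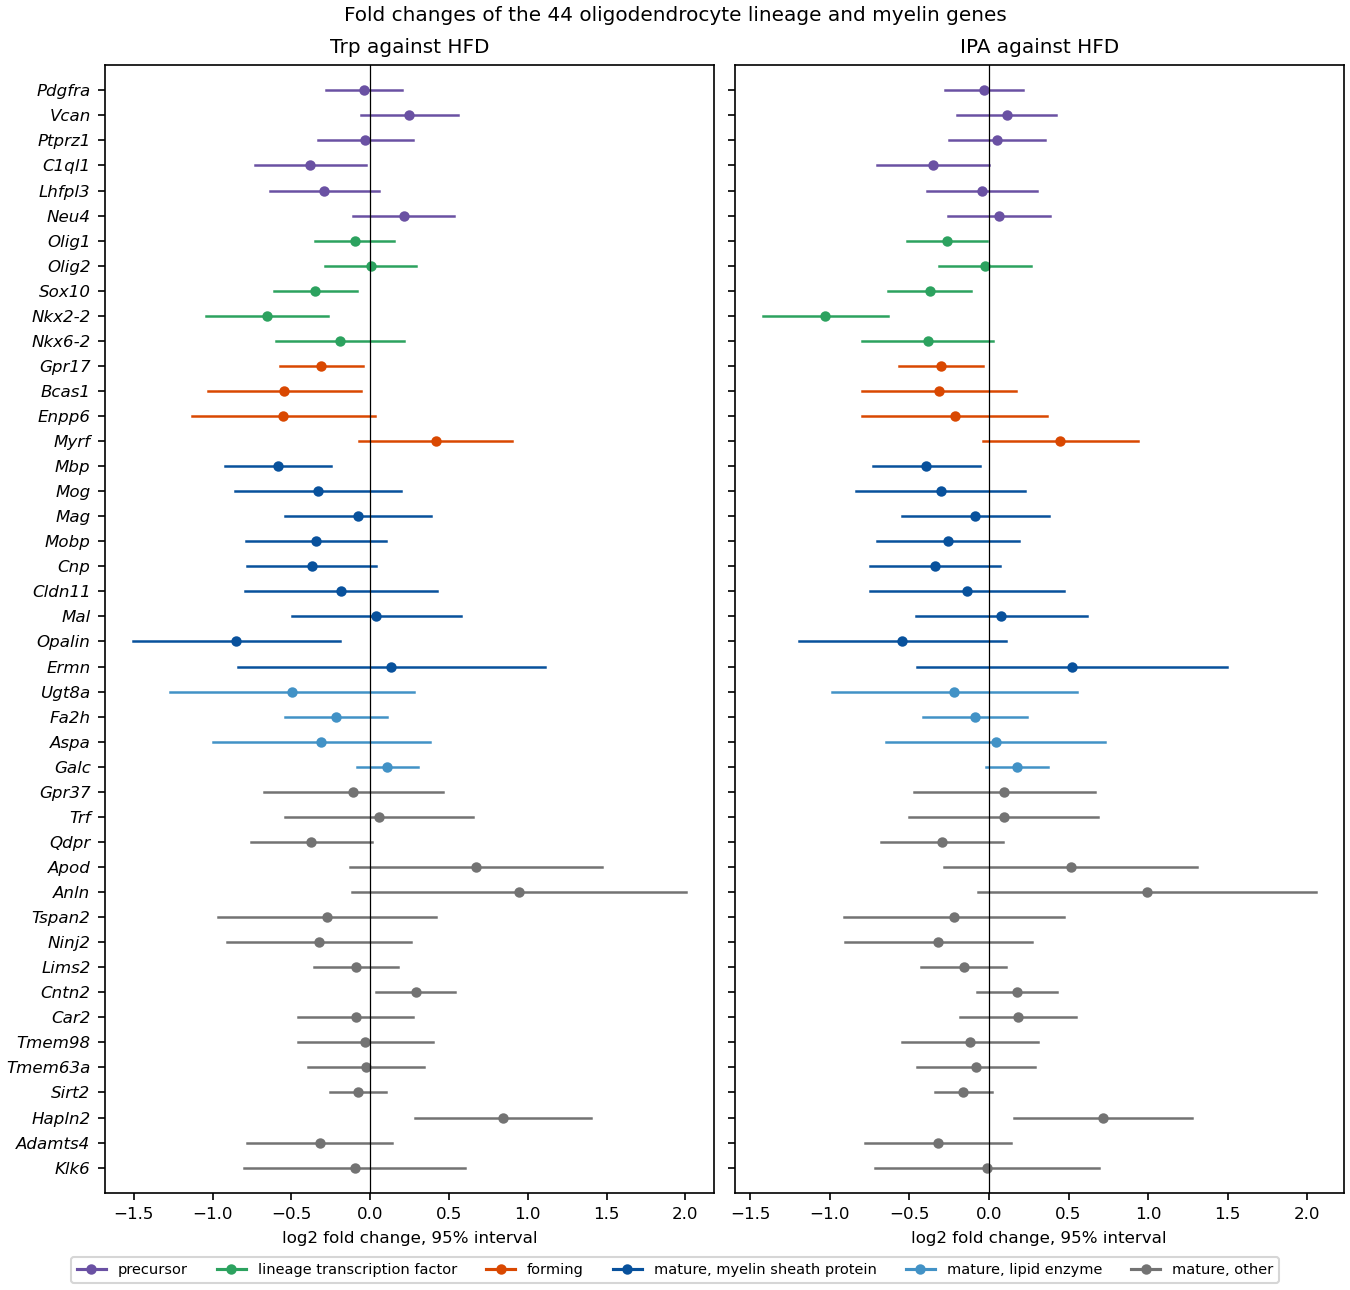
Log2 fold change (x axis) of each of the 44 genes (y axis, coloured by role) in Trp and in IPA against HFD, with 95% intervals from edgeR. Nkx2-2 lies lowest in IPA at -1.03 and Opalin lowest in Trp at -0.85, while Anln lies highest in both, at 0.95 in Trp and 0.99 in IPA, with wide intervals that reach below 0.

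Precursor genes lay close together in the 3 groups. Their median log2 fold change was -0.03 in Trp and 0.01 in IPA against HFD, beside -0.00 and -0.01 for all genes tested. Without HFD 3 it was 0.07 in Trp and 0.18 in IPA. Pdgfra, the receptor that precursors need to divide, was measured at 44.2, 42.8 and 46.6 CPM in the HFD libraries (in the order of their numbers, as below), at 49.1, 40.8 and 40.8 CPM for IPA, and at 47.8, 45.3 and 37.0 CPM for Trp. The ranges overlapped, and the 95% intervals of its log2 fold change were -0.28 to 0.20 in Trp and -0.27 to 0.21 in IPA. Vcan, a matrix proteoglycan of precursors, showed 13.3, 12.8 and 15.6 CPM in HFD, 15.8, 12.8 and 16.5 in IPA, and 18.4, 17.6 and 13.6 in Trp. Lhfpl3, a tetraspan membrane protein, had 31.0, 31.9 and 45.7 CPM in HFD, 41.7, 31.3 and 32.4 in IPA, and 30.4, 31.7 and 26.7 in Trp. With all 9 libraries, C1ql1, a secreted C1q-like protein, was the only precursor member at an unadjusted p under 0.05, in Trp. Its levels were 10.9, 7.77 and 10.2 CPM in HFD, 7.11, 8.58 and 6.95 CPM in IPA, and 6.64, 7.06 and 8.49 CPM in Trp. The ranges overlapped through HFD 2, and edgeR's adjusted p was 0.398 at a log2 fold change of -0.38 (SE 0.16). The remaining precursor members, Ptprz1 and Neu4, had overlapping ranges in both comparisons. Without HFD 3, C1ql1 in Trp was at -0.34 with an unadjusted p of 0.0749 by edgeR. Vcan (0.34, unadjusted p = 0.0394) and Neu4 (0.35, unadjusted p = 0.0279) were then higher in Trp by edgeR, with adjusted p of 0.312 and 0.266.

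Of the 5 lineage transcription factors, Nkx2-2, a homeodomain protein that promotes the step from precursor to myelinating cell, had the lowest level in IPA relative to HFD. It was measured at 3.88, 3.71 and 4.32 CPM in HFD, at 1.88, 1.85 and 2.104 CPM in IPA, and at 2.18, 2.80 and 2.58 CPM in Trp. In CPM every HFD library lay above every supplemented library, and the Trp libraries lay above the IPA libraries. In the authors' FPKM, Trp 2 (1.742) lay between HFD 1 (1.735) and HFD 2 (1.758). The counts of Nkx2-2 ranged from 75 to 184 per library. Group means were 3.97 ± 0.316 (HFD), 1.94 ± 0.140 (IPA) and 2.52 ± 0.314 CPM (Trp), with the SD of n = 3. The log2 fold change in IPA was -1.03 (SE 0.18, 0.490-fold), with an unadjusted p of 8.96e-05 but an adjusted p of 0.14 by edgeR. DESeq2 gave the same log2 fold change with an adjusted p of 0.00176, and the authors' deposited table lists Nkx2-2 as down in IPA, at a log2 fold change of -1.03 with q = 0.00447 (the authors' call took 0.302% of the genes they tested). Over the alternatives computed for it here, the adjusted p ran from 0.00176 to 0.456 and the log2 fold change from -1.09 to -0.57. Without HFD 3 the value was -0.96 (adjusted p = 0.0812). In Trp the log2 fold change was -0.66 (SE 0.18, adjusted p = 0.199 by edgeR).

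Nkx2-2 shares 278 bases of exon with the antisense gene Nkx2-2os on chromosome 2, and the libraries were not described as marking strand. Nkx2-2os itself had 45, 33 and 51 counts in HFD, 42, 32 and 33 in IPA, and 54, 30 and 26 in Trp, so its counts overlapped between the groups. The 250 bases before the start of Nkx2-2 are shown because it had the lowest IPA to HFD ratio of the 44 genes. They come from RefSeq (GRCm38.p6, minus strand, chr2:147186403-147186652) and hold no match to 3 motifs of lineage factors searched on both strands. These were CTGGNAC for Myrf, ACAANG for Sox factors and the E-box CAGCTG, read by Olig2 among others. No capitals therefore appear in it.
Nkx2-2: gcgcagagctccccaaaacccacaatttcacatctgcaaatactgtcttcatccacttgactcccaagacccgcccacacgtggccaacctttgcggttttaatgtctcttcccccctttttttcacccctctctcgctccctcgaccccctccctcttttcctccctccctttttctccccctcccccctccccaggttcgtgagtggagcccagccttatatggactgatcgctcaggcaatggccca

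Sox10, which keeps the lineage's identity and drives sheath genes, was measured at 33.3, 32.8 and 43.5 CPM in HFD, at 28.95, 29.8 and 25.8 CPM in IPA and at 26.6, 28.3 and 31.2 CPM in Trp. In CPM the HFD range did not overlap either other range, while in the authors' FPKM it overlapped that of Trp. Its log2 fold change was -0.35 in Trp (SE 0.12, adjusted p = 0.296) and -0.37 in IPA (SE 0.12, adjusted p = 0.345) by edgeR, and without HFD 3 the values were -0.20 and -0.23. Olig1, an early factor of the lineage, had 128, 126 and 167 CPM in HFD, 121, 111 and 118 in IPA, and 124, 120 and 148 in Trp. Its IPA libraries all lay below its HFD libraries, while the Trp range overlapped. Olig2, required to form the lineage at all, lay at 25.9, 23.0 and 31.2 CPM in HFD, 23.4, 24.6 and 30.8 in IPA, and 29.2, 25.5 and 25.6 in Trp. Its ranges overlapped, and the 95% interval of its log2 fold change was -0.29 to 0.29 in Trp and -0.31 to 0.27 in IPA. The median over the 5 factors was -0.19 in Trp and -0.37 in IPA, and without HFD 3 these became 0.04 and -0.12. The remaining factor, Nkx6-2, overlapped in both comparisons and shares 246 exon bases with Inpp5a, an abundant neighbour with 2164 to 2888 counts.

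Of the 4 genes of cells forming myelin, 3 had lower means in both supplemented groups by the fit with all libraries, none past the adjusted threshold. Gpr17, a receptor of the short stage before myelination, was measured at 70.0, 75.8 and 82.0 CPM in HFD, at 52.6, 60.7 and 71.6 CPM in IPA and at 56.0, 58.5 and 69.5 CPM in Trp. In CPM all Trp libraries lay below all HFD libraries, and 1 IPA library lay within the HFD range. In FPKM, Trp 3 lay above HFD 1. The log2 fold change was -0.31 in Trp (adjusted p = 0.355) and -0.30 in IPA (adjusted p = 0.44), each with SE 0.12 by edgeR. Gpr17 shares 188 exon bases with Lims2, another of the 44 genes, on the other strand. Bcas1, a cytoplasmic protein of early myelinating cells, showed 296, 332 and 532 CPM in HFD, 371, 293 and 270 in IPA, and 298, 243 and 254 in Trp. Enpp6, a choline phosphodiesterase of newly formed oligodendrocytes, had 11.7, 12.6 and 22.5 CPM in HFD, 11.1, 11.6 and 17.5 in IPA, and 11.5, 9.31 and 11.02 in Trp. Both had their highest value in HFD 3, and for Enpp6 all Trp libraries lay below all HFD libraries in CPM, but not in FPKM. Leaving out HFD 3 moved the log2 fold change of Bcas1 from -0.55 to -0.24 in Trp and from -0.31 to -0.01 in IPA. That of Enpp6 went from -0.55 to -0.19 in Trp and turned from -0.22 to 0.14 in IPA. Gpr17 stayed lower, at -0.25 in Trp and -0.24 in IPA.

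The fourth was Myrf, the membrane-bound factor that switches on and maintains the sheath genes. It was measured at 24.3, 26.8 and 45.6 CPM in HFD, at 42.4, 47.3 and 42.3 CPM in IPA and at 50.4, 40.3 and 38.3 CPM in Trp. HFD 1 and HFD 2 lay below all 6 supplemented libraries, and HFD 3 lay among them. Group means were 32.3 ± 11.7 (HFD), 43.98 ± 2.86 (IPA) and 43.0 ± 6.46 CPM (Trp), with the SD of n = 3. With all libraries the log2 fold change was 0.42 in Trp (SE 0.22, adjusted p = 0.523) and 0.45 in IPA (SE 0.22, adjusted p = 0.503) by edgeR.

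**Figure D3:**
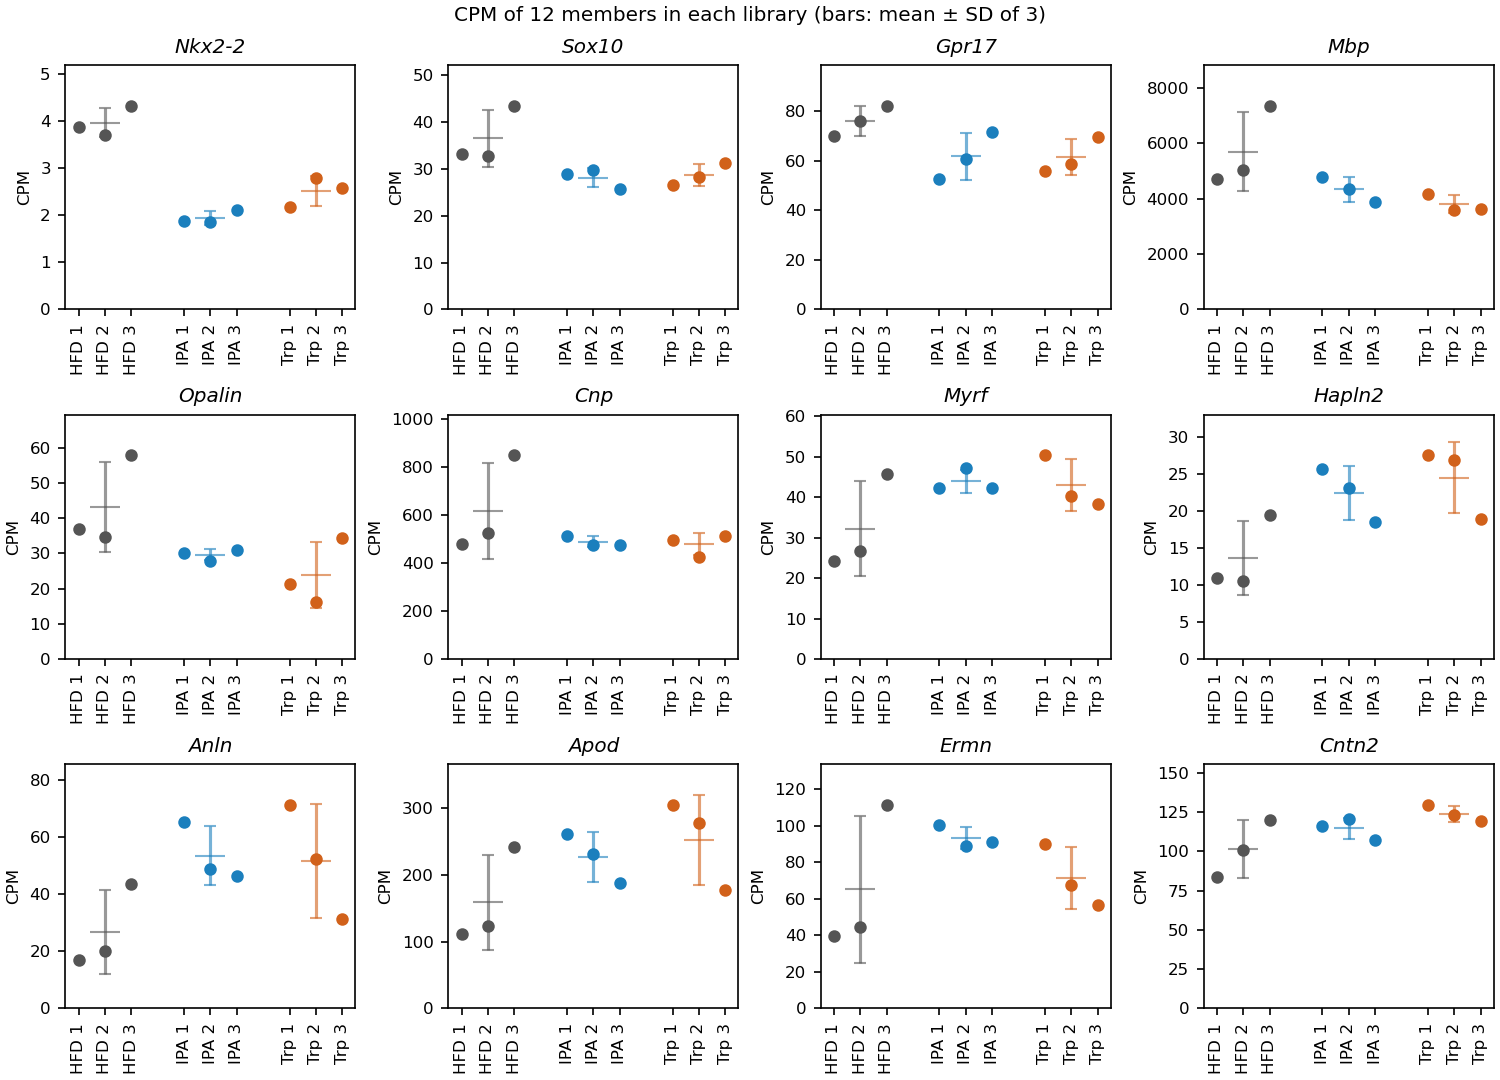
CPM (y axis, from 0) of 12 of the 44 genes in each library (x axis), with group means and SDs as bars. For Nkx2-2 and Sox10 all 3 HFD points lie above the other 6, whereas for Myrf and Hapln2 HFD 1 and HFD 2 lie below all supplemented libraries and HFD 3 lies among them or at their lower edge.

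Among the 9 sheath protein genes, 7 had lower means in Trp than in HFD by the fit, with a median of -0.33, and 7 in IPA, with a median of -0.26. Without HFD 3, 4 of the 9 were lower in Trp (Mbp, Mobp, Cnp and Opalin) and 3 in IPA (Mbp, Cnp and Opalin), and the medians became 0.04 and 0.06. Mbp, whose protein compacts the sheath, was the most abundant. It was measured at 4718, 5049 and 7356 CPM in HFD, at 4789, 4348 and 3890 CPM in IPA, and at 4176, 3589 and 3635 CPM in Trp. All Trp libraries lay below all HFD libraries, while IPA 1 lay above HFD 1. The log2 fold change was -0.59 in Trp (SE 0.15, 0.666-fold, adjusted p = 0.181) and -0.39 in IPA (SE 0.15, adjusted p = 0.431) by edgeR. DESeq2 gave Mbp an adjusted p of 0.0125 in Trp, and the authors' deposited table gives q = 0.0259 without a call. Over the alternatives the adjusted p in Trp ran from 0.0125 to 0.633, and without HFD 3 the log2 fold change was -0.36 (adjusted p = 0.111).

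Opalin, a transmembrane glycoprotein of oligodendrocytes, was measured at 37.0, 34.8 and 57.8 CPM in HFD, at 30.0, 27.8 and 31.0 CPM in IPA and at 21.3, 16.2 and 34.3 CPM in Trp. In CPM every HFD library lay above all others, though Trp 3 came within 1 CPM of HFD 2. In FPKM, Trp 3 lay above HFD 1 and HFD 2. The log2 fold change in Trp was -0.85 (SE 0.29, adjusted p = 0.322 by edgeR), and -0.54 in IPA (adjusted p = 0.546). Cnp, the enzyme that keeps channels of cytoplasm open in the sheath, showed 478, 527 and 848 CPM in HFD, 514, 474 and 476 in IPA, and 496, 426 and 512 in Trp. Mog, an immunoglobulin-like protein of the outer surface, had 92.5, 97.9 and 178 CPM in HFD, 107, 92.3 and 99.3 in IPA, and 108, 85.5 and 99.9 in Trp. Mag, the adhesion protein of the inner wrap, lay at 127, 133 and 235 CPM in HFD, 158, 155 and 153 in IPA, and 165, 144 and 160 in Trp. For Cnp, Mog and Mag the ranges overlapped, with HFD 3 far above every other library. The other 4 sheath genes, Mobp, Cldn11, Mal and Ermn, overlapped in both comparisons. Cnp shares 154 exon bases with Dnajc7 on the other strand.

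The promoter of Opalin (RefSeq GRCm38.p6, minus strand, chr19:41077114-41077363) is shown because its levels had the lowest Trp to HFD ratio of the 44 genes. Capitals mark 1 match to ACAANG, starting 139 bases before the start of the gene. This motif occurs in 36.3% of 32851 windows of the same length, and in 18 of the 32 members that had a window.
Opalin: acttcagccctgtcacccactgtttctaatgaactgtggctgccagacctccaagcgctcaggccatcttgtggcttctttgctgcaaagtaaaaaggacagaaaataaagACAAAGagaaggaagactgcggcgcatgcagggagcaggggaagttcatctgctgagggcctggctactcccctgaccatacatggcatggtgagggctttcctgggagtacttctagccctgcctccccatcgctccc

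The 4 lipid enzymes had small or variable differences. Ugt8a, which makes galactosylceramide, was measured at 42.2, 52.2 and 108 CPM in HFD, at 57.6, 55.2 and 60.9 CPM in IPA and at 50.01, 39.2 and 53.9 CPM in Trp. In CPM all its Trp libraries lay below its IPA libraries, though not in FPKM, and HFD 3 lay above everything else. Fa2h, which hydroxylates the fatty acids of these lipids, had 29.3, 32.6 and 45.6 CPM in HFD, 31.2, 33.7 and 36.3 in IPA, and 31.8, 27.2 and 33.4 in Trp. Galc, the lysosomal enzyme that degrades galactosylceramide, was nearly constant, at 19.6, 18.5 and 20.8 CPM in HFD, 22.7, 21.1 and 22.6 in IPA, and 21.1, 21.2 and 21.2 in Trp. Its HFD range lay below both other ranges, which overlapped each other, and the means of HFD, IPA and Trp were 19.6, 22.1 and 21.2 CPM. Aspa, which splits N-acetylaspartate to feed lipid synthesis, overlapped in both comparisons.

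Of the 16 other mature genes, Hapln2 had the smallest unadjusted p for a higher level. It encodes a link protein that anchors the matrix at the nodes of Ranvier. Hapln2 was measured at 11.01, 10.6 and 19.4 CPM in HFD, at 25.7, 23.1 and 18.5 CPM in IPA, and at 27.5, 27.0 and 19.0 CPM in Trp. HFD 1 and HFD 2 lay below all supplemented libraries, and HFD 3 lay just above IPA 3 and Trp 3, so the ranges overlapped. Group means were 13.7 ± 4.99 (HFD), 22.5 ± 3.63 (IPA) and 24.5 ± 4.78 CPM (Trp), with the SD of n = 3. The log2 fold change was 0.84 in Trp (SE 0.25, 1.79-fold, adjusted p = 0.259) and 0.72 in IPA (SE 0.25, adjusted p = 0.393) by edgeR. DESeq2 gave an adjusted p of 0.0134 in Trp, and the authors' deposited table gives q = 0.0324 without a call. The adjusted p ran from 1.56e-04 to 0.719 over the alternatives in Trp, and from 0.00248 to 0.747 in IPA. Both lowest values came from the fit without HFD 3 and Trp 3, chosen after seeing the data. Without HFD 3 alone the adjusted p by edgeR was 0.00628 in Trp and 0.0347 in IPA.

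Cntn2, an adhesion molecule of the zone beside the node that neurons also make, lay at 83.6, 101 and 120 CPM in HFD, 116, 120 and 107 in IPA, and 130, 123 and 119 in Trp. HFD 3 fell within the Trp range. Qdpr, an enzyme that recycles tetrahydrobiopterin, showed 289, 291 and 462 CPM in HFD, 310, 277 and 262 in IPA, and 264, 238 and 303 in Trp.

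Anln, Apod, Ermn and Trf were singled out after their values were seen. Anln, the septin scaffold anillin, was measured at 16.9, 20.02 and 43.8 CPM in HFD, at 65.3, 48.8 and 46.3 CPM in IPA and at 71.4, 52.5 and 31.5 CPM in Trp. All IPA libraries lay above all HFD libraries, whereas Trp 3 lay below HFD 3. Apod, the lipid-binding apolipoprotein D, had 112, 123 and 241 CPM in HFD, 261, 232 and 187 in IPA, and 305, 277 and 177 in Trp. Ermn lay at 39.3, 44.6 and 111 CPM in HFD, 100, 88.7 and 91.2 in IPA, and 90.1, 67.6 and 56.5 in Trp. Trf, the iron carrier transferrin, showed 228, 235 and 464 CPM in HFD, 331, 355 and 301 in IPA, and 362, 297 and 304 in Trp. Ermn shares 237 exon bases with Galnt5, which had 0 or 1 counts in each library. In all 4 genes HFD 1 and HFD 2 were the lowest libraries. By edgeR the log2 fold changes of Anln were 0.95 in Trp (SE 0.44, adjusted p = 0.496) and 0.99 in IPA (SE 0.45, adjusted p = 0.501). Without HFD 3 they were 1.49 (adjusted p = 0.152) and 1.53 (adjusted p = 0.193), and without HFD 3 and Trp 3, a choice made after seeing the data, 1.75 (adjusted p = 0.00483) and 1.53 (adjusted p = 0.0143). With each library left out in turn, those of Anln ran from 0.64 to 1.49 in Trp and from 0.75 to 1.53 in IPA. In the reference annotation Trf shares 2108 exon bases with the same-strand readthrough gene Gm20425, which was not analysed here, so its counts may be divided between them.

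Choroid plexus and ependymal markers also varied between libraries. The mean log2 CPM of 10 choroid plexus markers was 1.86, 1.47 and 3.61 in HFD, 2.55, 4.20 and 3.61 in IPA, and 4.39, 2.84 and 0.21 in Trp, and that of 10 ependymal markers was 0.84, 1.12 and 1.21 in HFD, 1.27, 2.09 and 1.86 in IPA, and 2.07, 1.83 and 0.93 in Trp. The 3 lowest libraries of both lists were HFD 1, HFD 2 and Trp 3, and Trp 3 was also the lowest Trp library for Anln, Apod, Ermn and Hapln2. Within IPA the order was the other way, as IPA 1 was the lowest IPA library of both lists and the highest for these 4 genes. Trf differed, with its lowest Trp value in Trp 2 (297 CPM) and its highest IPA value in IPA 2 (355 CPM). All 10 markers of each list were detected well enough to be tested. Their summed level was 141 to 730 CPM in HFD, 312 to 1223 in IPA and 40.8 to 1449 in Trp for choroid plexus, and 24.1 to 33.6, 33.0 to 52.5 and 27.4 to 51.7 CPM for ependyma. None of these markers is among the 44 genes, and their part in these levels was not tested.

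The promoters of Hapln2 (minus strand, chr3:88027512-88027761) and Apod (minus strand, chr16:31314809-31315058) come from RefSeq on GRCm38.p6. They are shown as examples from the genes with higher means in both supplemented groups. Anln, Ermn, Cntn2 and others also had higher means in both and a window, but are not shown. The matches below therefore describe only this pair, and regulation by these factors was not tested. Capitals mark the motif matches. Hapln2 has a CTGGNAC match on the other strand 144 bases before the start, the E-box 115 bases before it and an ACAANG match 35 bases before it. Apod has CTGGNAC at 140 bases and ACAANG at 84 bases before its start. The Myrf motif occurs in 16.1% of all 32851 windows and in 7 of the 32 members with a window, and the E-box in 13% and in 5.
Hapln2: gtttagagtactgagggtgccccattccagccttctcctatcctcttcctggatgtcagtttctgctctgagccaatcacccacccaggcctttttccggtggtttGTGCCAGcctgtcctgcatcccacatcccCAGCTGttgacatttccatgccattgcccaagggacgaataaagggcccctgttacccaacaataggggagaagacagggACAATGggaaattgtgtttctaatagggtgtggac
Apod: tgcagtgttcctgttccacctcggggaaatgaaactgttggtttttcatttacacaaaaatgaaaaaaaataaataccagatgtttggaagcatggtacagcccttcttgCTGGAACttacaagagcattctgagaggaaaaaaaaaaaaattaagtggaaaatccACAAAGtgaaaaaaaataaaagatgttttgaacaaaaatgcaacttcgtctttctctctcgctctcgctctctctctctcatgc

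Counted by ranges of CPM, 6 genes were lower in every Trp library than in every HFD library (Sox10, Nkx2-2, Gpr17, Enpp6, Mbp and Opalin), beside 7.43% of all genes tested, and 1 was higher (Galc), beside 8.06%. In IPA, 4 were lower (Olig1, Sox10, Nkx2-2 and Opalin), beside 8.01%, and 2 were higher (Galc and Anln), beside 7.19%. Between Trp and IPA, 1 was higher in Trp (Nkx2-2), beside 5.61%, and 2 were lower (Ugt8a and Car2), beside 5.55%. All other members had overlapping CPM ranges in these comparisons. On the authors' FPKM, the Trp and HFD ranges of Sox10, Nkx2-2, Gpr17, Enpp6 and Opalin overlapped, so these separations depend on the scaling. Those of Mbp and Galc stayed apart, and Cntn2 and Hapln2 then lay higher in every Trp library. The 4 genes lower in IPA stayed below HFD on FPKM too.

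Without HFD 3, a few genes rose past the threshold. In Trp, 4 of the 44 genes passed (9.09%, beside 1.69% of all genes tested), all higher: Myrf at 0.75 (adjusted p = 0.00814), Trf at 0.48 (adjusted p = 0.0368), Cntn2 at 0.43 (adjusted p = 0.0409) and Hapln2 at 1.18 (adjusted p = 0.00628), as log2 fold changes by edgeR. In IPA, 3 passed (6.82%, beside 0.272%), all higher: Myrf at 0.78 (adjusted p = 0.0253), Ermn at 1.15 (adjusted p = 0.0347) and Hapln2 at 1.06 (adjusted p = 0.0347). The median of the 29 mature genes turned from -0.10 to 0.17 in Trp and from -0.09 to 0.23 in IPA, beside 0.00 and -0.00 for all genes tested. Of these 29 genes, 20 were then higher in Trp and 22 in IPA, against 8 and 11 with HFD 3 included. Nkx2-2 (-0.59 and -0.96), Opalin (-0.58 and -0.28) and Mbp (-0.36 and -0.17) remained lower in Trp and IPA, none past the threshold. With HFD 3 left out, the HFD group rests on 2 mice. HFD 3 lay above the mean of HFD 1 and HFD 2 in all 44 genes (lowest ratio 1.03), so leaving it out moved their fold changes upward by construction. Leaving out HFD 1 or HFD 2 instead gave 0 members in Trp and in IPA. When Trp 3 was left out too, a choice made after seeing the data, 9 members passed in each comparison, 8 higher and 1 lower, beside 4.09% in Trp and 1.3% in IPA.

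**Figure D4:**
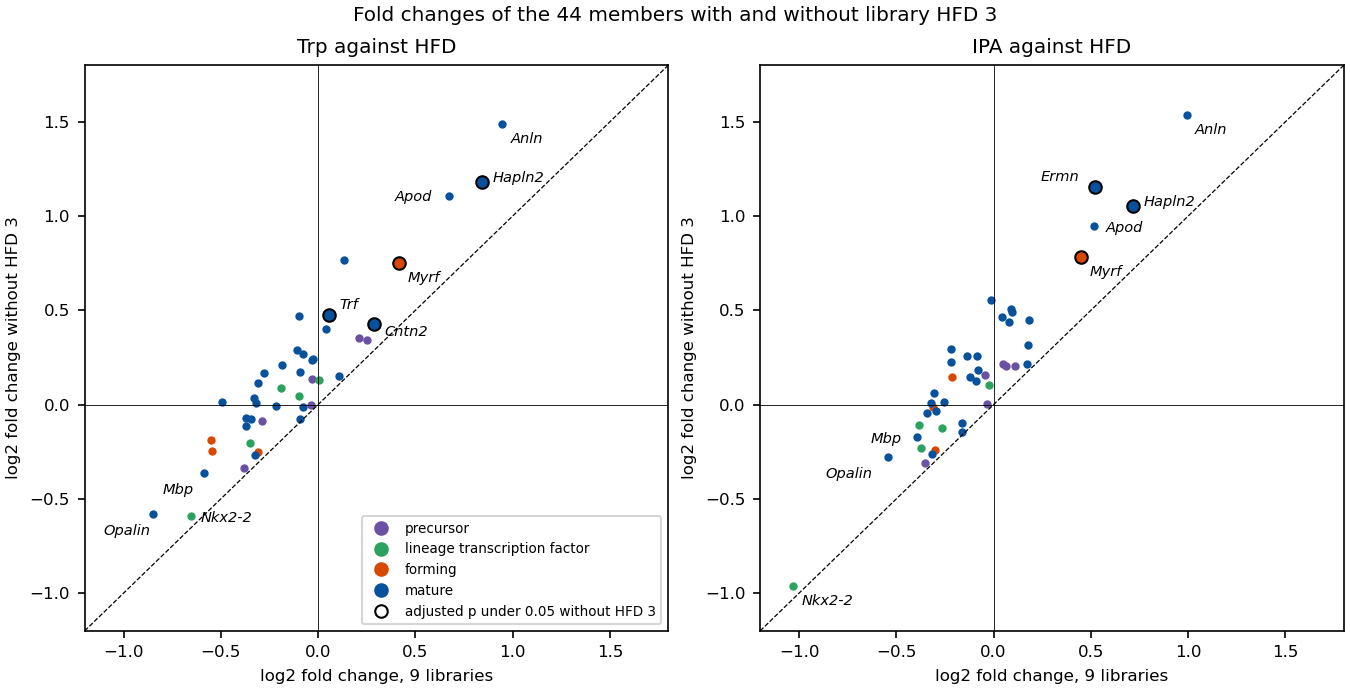
Log2 fold change of each of the 44 genes with all 9 libraries (x axis) and without HFD 3 (y axis), coloured by stage, with the dashed line at equal values and black rims for adjusted p under 0.05 without HFD 3. All 44 genes lie above the line, since HFD 3 exceeded the mean of HFD 1 and HFD 2 in each. Myrf and Hapln2 pass in both panels, and Nkx2-2 stays near the line.

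Set against the other mature genes of the same library, Mbp, Cnp, Opalin and Qdpr lay lower and Myrf, Apod, Anln and Hapln2 higher in both supplemented groups. For this description, chosen after seeing the data, each library's log2 levels were corrected by the typical deviation of 42 mature oligodendrocyte genes outside the 44. That deviation was 0.52 in HFD 3, -0.16 and -0.15 in HFD 1 and HFD 2, and -0.15 to 0.05 in the other 6 libraries. In Trp against HFD, 6 members then lay higher in every library (Neu4, Myrf, Apod, Anln, Cntn2 and Hapln2), beside 6.9% of all genes, and 7 lower (Bcas1, Enpp6, Mbp, Mobp, Cnp, Opalin and Qdpr), beside 1.53%. In IPA, 6 lay higher (Myrf, Ermn, Apod, Anln, Car2 and Hapln2), beside 4.69%, and 8 lower (Sox10, Nkx2-2, Nkx6-2, Mbp, Mog, Cnp, Opalin and Qdpr), beside 2.47%. In both comparisons at once, 4 members lay higher, beside 2.05% of all genes, and 4 lower, beside 0.69%. The correction lowers HFD 3 for every gene, including genes that do not follow these cells. Before it, the shares of all genes that lay lower were 7.43% in Trp and 8.01% in IPA. The corrected shares are therefore no neutral yardstick for the members. On this scale Mbp lay at 12.37, 12.45 and 12.32 in HFD, 12.18, 12.05 and 11.95 in IPA, and 11.99, 11.95 and 11.85 in Trp. Myrf lay at 4.77, 4.90 and 4.99 in HFD, 5.36, 5.53 and 5.43 in IPA, and 5.62, 5.48 and 5.28 in Trp. For both genes the range of the HFD libraries, HFD 3 included, did not overlap that of the others. The 9 sheath genes were divided: 4 were lower without overlap in each comparison, Ermn was higher without overlap in IPA, and Mag, Mal and Cldn11 overlapped in both.

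**Figure D5:**
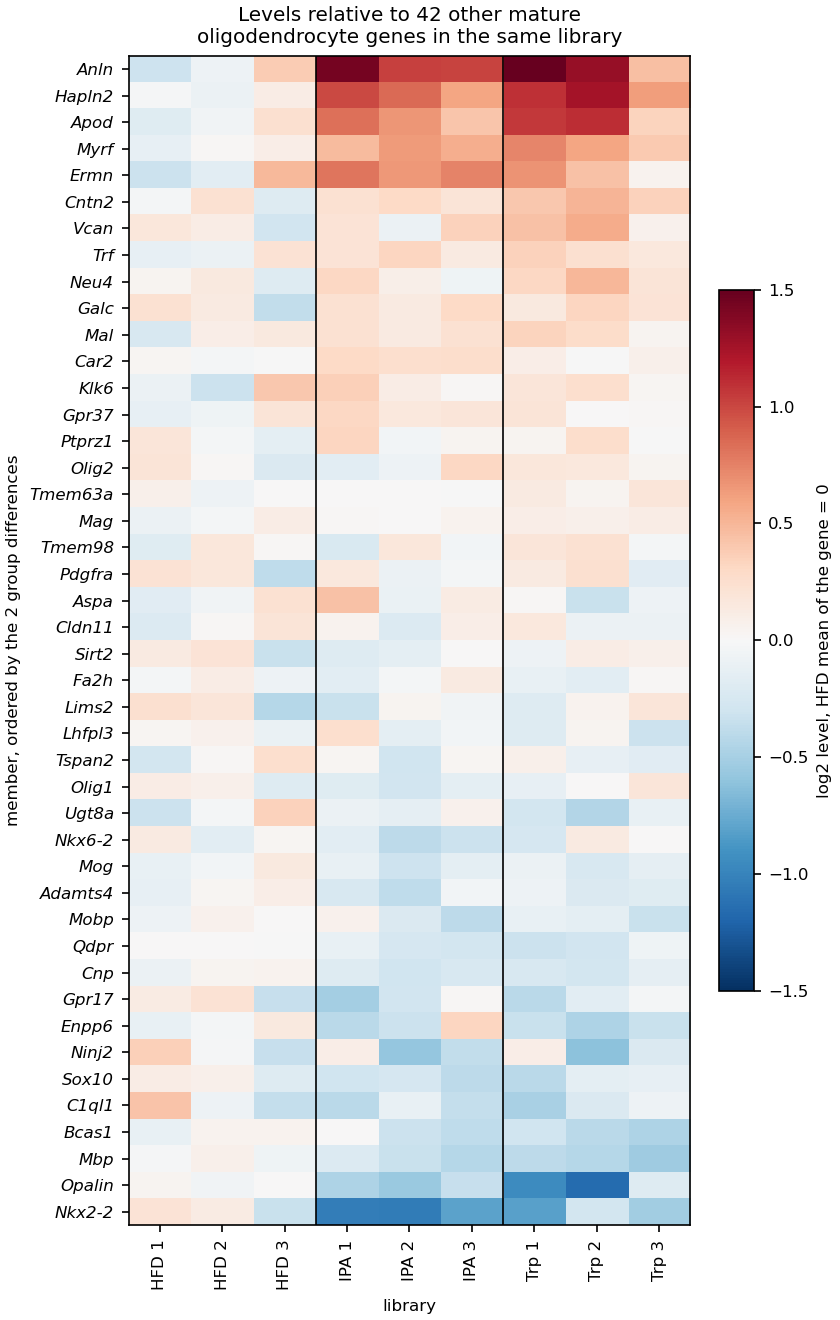
Log2 level of each of the 44 genes (rows) in each library (columns) after correction by 42 other mature oligodendrocyte genes, with the gene's HFD mean set to 0; red is higher and blue lower. Rows are ordered by the sum of the group differences. Anln, Hapln2, Apod and Myrf at the top are red in both supplemented groups, and Mbp, Opalin and Nkx2-2 at the bottom are blue.

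When the level of those 42 genes was instead a covariate of the edgeR fit, also chosen after seeing the data, 4 members passed in Trp (beside 1.49% of all genes). Myrf (0.61, adjusted p = 0.00738), Cntn2 (0.36, adjusted p = 0.0446) and Hapln2 (1.04, adjusted p = 0.00717) were higher and Mbp (-0.46, adjusted p = 0.016) lower. In IPA, 4 passed (beside 0.685%). Myrf (0.57, adjusted p = 0.021), Ermn (0.79, adjusted p = 0.0257) and Hapln2 (0.83, adjusted p = 0.0352) were higher and Nkx2-2 (-1.02, adjusted p = 0.0273) lower. The covariate was 0.52 in HFD 3 and between -0.16 and 0.05 in the other libraries, so it acts mainly on HFD 3. Its results are therefore not independent of the fit without HFD 3. In the ranges that follow, each lowest adjusted p came from the fit without HFD 3 and Trp 3, chosen after seeing the data. Over the alternatives in which it had a value, Myrf's adjusted p ran from 0.00154 to 0.82 in Trp and from 0.00466 to 0.871 in IPA, and Ermn's in IPA from 8.85e-04 to 0.94. That of Cntn2 ran from 0.024 to 0.775 and that of Trf from 0.0163 to 1 in Trp.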

How the data were processed

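RNA-seq was made from tissue labelled as hippocampal, 3 mice in each of 3 groups. Per the labels' protocols, messenger RNA was enriched with oligo(dT) beads, fragmented, copied from random hexamers and amplified, with no step that marks strand. StringTie 2.1.3b and the build mm10 are named per the submitters' processing notes. Not given in the sources used here are the aligner, the counting tool, the annotation and the test behind the authors' calls. The table of the whole series holds counts per gene and library as deposited (whole numbers, per the file headers), FPKM computed by the authors, and the authors' log2 fold changes, p-values, q-values and calls. Each library column was mapped through the name that the labels pair with it, and 0 columns were left over.

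Counts were tested with edgeR 4.0.16 in R 4.3.3: TMM scaling, filterByExpr with a minimum count of 10 (18690 genes, all 44 members), robust quasi-likelihood fit of 3 group means over 9 libraries, two-sided, Benjamini-Hochberg over all genes tested, threshold 0.05. CPM are counts scaled to the TMM-adjusted library total. The scripts were tested on simulated data. The labels tie no library to a named mouse, so p-values measure only the spread between these samples. A single value compared between 3 and 3 libraries by an exact permutation test cannot go below p = 0.1, so no such test was used. The alternatives were RLE scaling, DESeq2 1.42.0, no filter, a mean FPKM of at least 5, limma 3.58.1 on log2(FPKM + 0.5, 0.1 or 1) for genes that reach an FPKM of 1 in 3 or more libraries, the 6 libraries compared alone, the replicate number as a block, each library left out, and thresholds of 0.01 and 0.1. Others, named where they appear, were chosen after seeing the data, and the ranges over the alternatives include them. The members and lists were chosen with earlier results of these data known.

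Values in all libraries are given for the 3 members of each role with the smallest unadjusted p, for any member past the threshold, and always for Pdgfra, Olig2, Sox10, Gpr17, Enpp6, Myrf, Mbp, Mog, Mag and Cnp. Of the other lineage genes, those past the threshold, the 2 with the smallest p per list and Cspg4 are named, except a few genes that are not reported here. Promoter sequences are RefSeq's (GRCm38.p6), and 32 of the 44 members had a window. Exon overlaps come from GENCODE M21. The positions listed in the deposited table were not used here. The plots were made in matplotlib 3.10.9 (Python 3.11.15).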

Additional observations from a re-analysis of the deposited data

How the results depend on the processing

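No member passed the main test, and the count of members past the threshold moved for Trp against HFD to 4 without HFD 3, 9 without HFD 3 and Trp 3, 4 with the other mature genes as covariate and 2 with DESeq2, and for IPA against HFD to 3, 9, 4 and 1. It was 0 to 4 in Trp and 0 to 3 in IPA when each library was left out in turn. The cause was not tested. In the Trp comparison, the median log2 fold change of transcription factors ran from -0.37 (without HFD 2) to 0.045 (without HFD 3). It was -0.039 with the covariate, and -0.038, -0.039 and -0.037 with limma on FPKM at pseudocounts of 0.5, 0.1 and 1. That of precursors was 0.14 without HFD 3 and Trp 3. In IPA, leaving out HFD 3, alone or with Trp 3, gave 0.18 for precursors, -0.12 for transcription factors, 0.067 for forming and 0.23 for mature genes. The ranges over left-out libraries were -0.10 to 0.18, -0.45 to -0.12, -0.37 to 0.066 and -0.21 to 0.23.

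Of 702 alternative values of single genes (members and Tppp3), 633 kept their direction and side of the threshold, 37 newly passed it, 7 (all of Tppp3 in Trp) no longer passed it and 25 changed sign. The sign changes were in members near 0 or spread widely within groups. Leaving out libraries gave ranges of -0.11 to 0.065 for Pdgfra, -0.092 to 0.13 for Olig2, -0.13 to 0.77 for Ermn and -0.12 to 0.48 for Trf in Trp, and of -0.13 to 0.014 for Pdgfra, -0.15 to 0.10 for Olig2 and -0.087 to 0.51 for Trf in IPA. Pdgfra in Trp was 0.10 without HFD 3 and Trp 3, and 0.047, 0.0497 and 0.044 with limma at pseudocounts of 0.5, 0.1 and 1. Without HFD 3 and Trp 3 in IPA, Pdgfra was 0.0029 and Olig2 0.10, and Olig2 was 0.012 with the covariate.

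Replicate numbers are shared between groups in the labels, but same-numbered libraries did not deviate together (correlations across genes of -0.196 to 0.048). With 3 libraries per group whose tissue content varied, such correlations cannot exclude a pairing of the mice. The main test used none. With the replicate block, 0 members passed in each comparison, and all genes past the threshold in Trp went from 64 to 23.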

Other observations

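Outside the 44 genes, 124 further genes of the lineage were tested, in lists of precursor (18), forming (15) and mature genes (42), myelin lipid synthesis (14), signals to the lineage (23) and the axonal node and paranode (12). By edgeR with Benjamini-Hochberg adjustment, 1 of the 124 passed. Tppp3, a tubulin-binding protein of the TPPP family that ciliated cells also make, rose in Trp. It was measured at 37.1, 38.4 and 48.2 CPM in HFD, at 73.9, 69.8 and 57.6 CPM in IPA and at 87.1, 89.1 and 67.3 CPM in Trp. Every supplemented library lay above every HFD library. The log2 fold change was 0.98 in Trp (SE 0.14, adjusted p = 0.012) and 0.70 in IPA (SE 0.14, adjusted p = 0.146). The call ended without HFD 1 (adjusted p = 0.0582), HFD 2 (0.0591), Trp 1 (0.0585) or Trp 2 (0.0773) with the replicate block (0.0541) and with only the 6 libraries compared (0.0629). Over 20 alternatives, including those chosen after seeing the data, the adjusted p in Trp ran from 2.19e-08 to 0.0773. The log2 fold change ran from 0.91 to 1.22. The ependymal markers given above had group means of 1.06 (HFD), 1.74 (IPA) and 1.61 (Trp) in log2 CPM, and their part in this value was not tested.

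Mpzl1, a glycoprotein of the cell surface, had 23.3, 24.4 and 27.8 CPM in HFD, 14.9, 14.97 and 16.7 in IPA, and 15.3, 16.9 and 20.1 in Trp. All its HFD libraries lay above the others (adjusted p = 0.106 in Trp and 0.14 in IPA by edgeR). Rras2, a small GTPase, showed 19.7, 16.5 and 21.3 CPM in HFD, 10.8, 13.2 and 12.2 in IPA, and 15.3, 10.5 and 15.3 in Trp, also without overlap. Pllp, plasmolipin of the sheath, had 57.1, 52.3 and 84.2 CPM in HFD, 48.7, 45.8 and 41.9 in IPA, and 39.98, 31.8 and 48.3 in Trp.

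Cspg4, the NG2 proteoglycan of precursors, lay at 12.3, 12.5 and 12.3 CPM in HFD, 9.76, 8.46 and 8.96 in IPA, and 10.5, 11.4 and 14.1 in Trp, so the IPA libraries were below all others (adjusted p = 0.315 against HFD by edgeR). The mean log2 CPM of 10 markers of mural cells, found in vessel walls, was also lowest in IPA. It was 2.76, 2.73 and 3.12 in HFD, 2.42, 2.45 and 2.55 in IPA, and 2.58, 2.63 and 3.02 in Trp. The part of mural cells in the Cspg4 level was not tested. Among the remaining genes with the smallest p of their list were Cspg5 and Cyp51 (lower in Trp), Lrrtm3 and Grm3 (higher in IPA), Sgms1 (higher) and Gal3st1 (lower in IPA), and Igf1, Pdgfa and Ncam1 (lower in both), with adjusted p from 0.25 to 0.491. Kcna1, a potassium channel beside the axonal paranode, had 17.9, 19.5 and 15.4 CPM in HFD, 23.7, 26.2 and 37.7 in IPA, and 36.0, 33.1 and 20.3 in Trp (adjusted p = 0.268 in Trp and 0.364 in IPA by edgeR), again without overlap with HFD.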
